A study of Mus musculus with 8 samples.

Results

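The genes described are 10 inhibitory receptors of T cells: Pdcd1 (PD-1), Havcr2 (TIM-3), Lag3 (LAG-3), Tigit, Ctla4, Cd160, Btla, Vsir (VISTA), Cd101 and Lair1. They were picked by gene symbol out of the 22180 genes that have exactly 1 symbol on the array, and each of the 10 had a single row there (transcript cluster, the probe set that measures 1 gene). The comparison is between 4 arrays from mice given a blocking antibody against the interleukin 10 receptor (anti-IL-10R) and 4 arrays from mice given an isotype antibody. All mice were female C57BL/6 animals that carried transplanted leukaemia cells from Eµ-TCL1 mice, a transgenic model of chronic lymphocytic leukaemia in which the transgene acts in B cells. Antibody treatment started 3 weeks after the transplant and went on for 2 weeks, and spleens were taken at week 5. The profiled cells were effector CD8 T cells sorted as lineage-negative, TCRb+, CD8+, CD127 low, CD44 intermediate to high and PD-1 high. The age of the mice, the number of leukaemia donors and any pooling of mice per array are not stated in the labels, and there is no group without leukaemia or without antibody. The labels do not say that each array came from a separate mouse, so every p-value measures the spread between these arrays, which may be technical.

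Inhibitory receptors sit on activated T cells and dampen the signals of the T cell receptor and of CD28 when they meet their ligands on neighbouring cells. Several of them carry short tyrosine motifs in the cell that recruit the phosphatases SHP-1, SHP-2 or SHIP-1, whereas others compete with a stimulatory receptor for a shared ligand. In chronic infection and in tumours, CD8 T cells that keep seeing antigen carry many of these receptors at once, a state called exhaustion. PD-1 protein on the surface was a criterion of the sort in both groups; what that gate does to the RNA of Pdcd1 or of the other 9 receptors was not tested.

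The windows upstream of 3 genes are shown first: Pdcd1, the gene of the sorted receptor, and Havcr2 and Vsir, which had the smallest p-values of the receptors tested. Each line gives the 250 bases before the gene's start, 5′ to 3′ on the gene's strand, from the RefSeq promoter table of build GRCm38.p6, and capitals mark the motif matches named below.
Pdcd1, chr1:94052554-94052803, minus strand: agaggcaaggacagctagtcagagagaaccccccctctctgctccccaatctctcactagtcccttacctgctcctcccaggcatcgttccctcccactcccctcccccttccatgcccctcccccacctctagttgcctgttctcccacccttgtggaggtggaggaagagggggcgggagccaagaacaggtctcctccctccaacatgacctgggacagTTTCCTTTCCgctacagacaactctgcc
Havcr2, chr11:46454681-46454930, plus strand: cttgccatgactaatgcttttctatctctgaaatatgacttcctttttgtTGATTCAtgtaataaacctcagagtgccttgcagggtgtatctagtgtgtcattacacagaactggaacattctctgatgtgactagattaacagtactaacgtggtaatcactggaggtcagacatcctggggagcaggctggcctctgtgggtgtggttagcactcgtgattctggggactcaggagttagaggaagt
Vsir, chr10:60346601-60346850, plus strand: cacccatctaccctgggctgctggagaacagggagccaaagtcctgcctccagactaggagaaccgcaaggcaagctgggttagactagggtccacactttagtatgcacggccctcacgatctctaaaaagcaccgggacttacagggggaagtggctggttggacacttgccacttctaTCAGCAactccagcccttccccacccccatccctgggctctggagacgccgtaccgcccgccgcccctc

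The table held such a window for 9 of the 10 receptors, with 2 start sites for Cd160, and these 10 windows were searched on both strands for 5 motifs. The NFAT core, GGAAA, was found for 6 of the 9 genes, and 55.6% of all 32851 promoter windows of the same length hold it. In Pdcd1 it occurred in 2 copies on the opposite strand, which start 28 and 23 bases before the gene's start. The AP-1 motif TGANTCA was found for Havcr2 alone, 200 bases before its start, and 6.75% of all windows hold it. The half-site of MAF, TGCTGA, was found 69 bases before the start of Vsir and in 1 window of Cd160, against 16.1% of all windows. The STAT motif TTCNNNGAA occurred in the other Cd160 window (7.02% of all windows), and the paired motif of interferon regulatory factors in none of the 10 (2.98%). A match describes letters only and says nothing of binding.

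Array medians lay between 5.19 and 5.31 on the deposited log2 scale. Isotype replicate 1 stood apart: over the 12019 genes tested it correlated with the other arrays at r = 0.915 to 0.929 (across genes, which are not independent replicates), whereas the other 7 arrays correlated with one another at 0.962 to 0.986. The value without it stands beside each named difference that it moves by over 1.5 times or whose call it changes, and beside the receptors. Of the sort's own genes, Cd3e, Cd8a and Cd8b1 differed by 0.27 ± 0.10, 0.31 ± 0.09 and 0.30 ± 0.11 (SE), and none passed the test over all genes (limma adjusted p = 0.165, 0.106 and 0.184), although no array of the isotype group reached an anti-IL-10R array. Cd44, which was dimmer, differed by 0.19 ± 0.16 (0.06 without isotype replicate 1), and Il7r, the gene of CD127, by 0.03 with a mean of 3.60 in anti-IL-10R and 3.57 in isotype arrays (0.33 without isotype replicate 1). Il10ra, which encodes the ligand-binding chain of the blocked receptor, differed by 0.51 ± 0.13 (adjusted p = 0.0648, and 0.0413 without isotype replicate 1).

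The estimated differences of the 10 receptors had both signs. Cd101, Havcr2, Ctla4, Vsir and Pdcd1 were higher by 0.50 to 0.67 on the log2 scale, Tigit and Lag3 by less, and Btla, Cd160 and Lair1 were lower. None of these differences passed the threshold, an adjusted p below 0.05 over all genes in limma, with all 8 arrays: 0 of the 9 receptors that were bright enough for the fit, against 1.23% of the 12019 genes called higher and 1.3% called lower. Unadjusted, 6 of the 9 had a p below 0.05, as did 2402 of all genes tested. Lair1, too dim for that fit, was tested over all 22180 genes, of which 0.352% were called lower, and did not pass either. Without isotype replicate 1, Havcr2 passed, and was the only one of the 9 that did, where 3.35% of all genes were called higher and 5.9% lower. Of the 9, 7 had a difference above 0 (54.7% of all genes tested did, and 48.9% without isotype replicate 1, where the same 7 did), and 5 were higher with no overlap between the groups (9.32% of all genes), with 0 lower (5.99%). Their median difference was 0.50, or 0.30 without isotype replicate 1, and over all genes it was 0.03 and −0.01. Since the receptors were named with earlier results of these arrays known, the counts are a description.

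**Figure D1:**
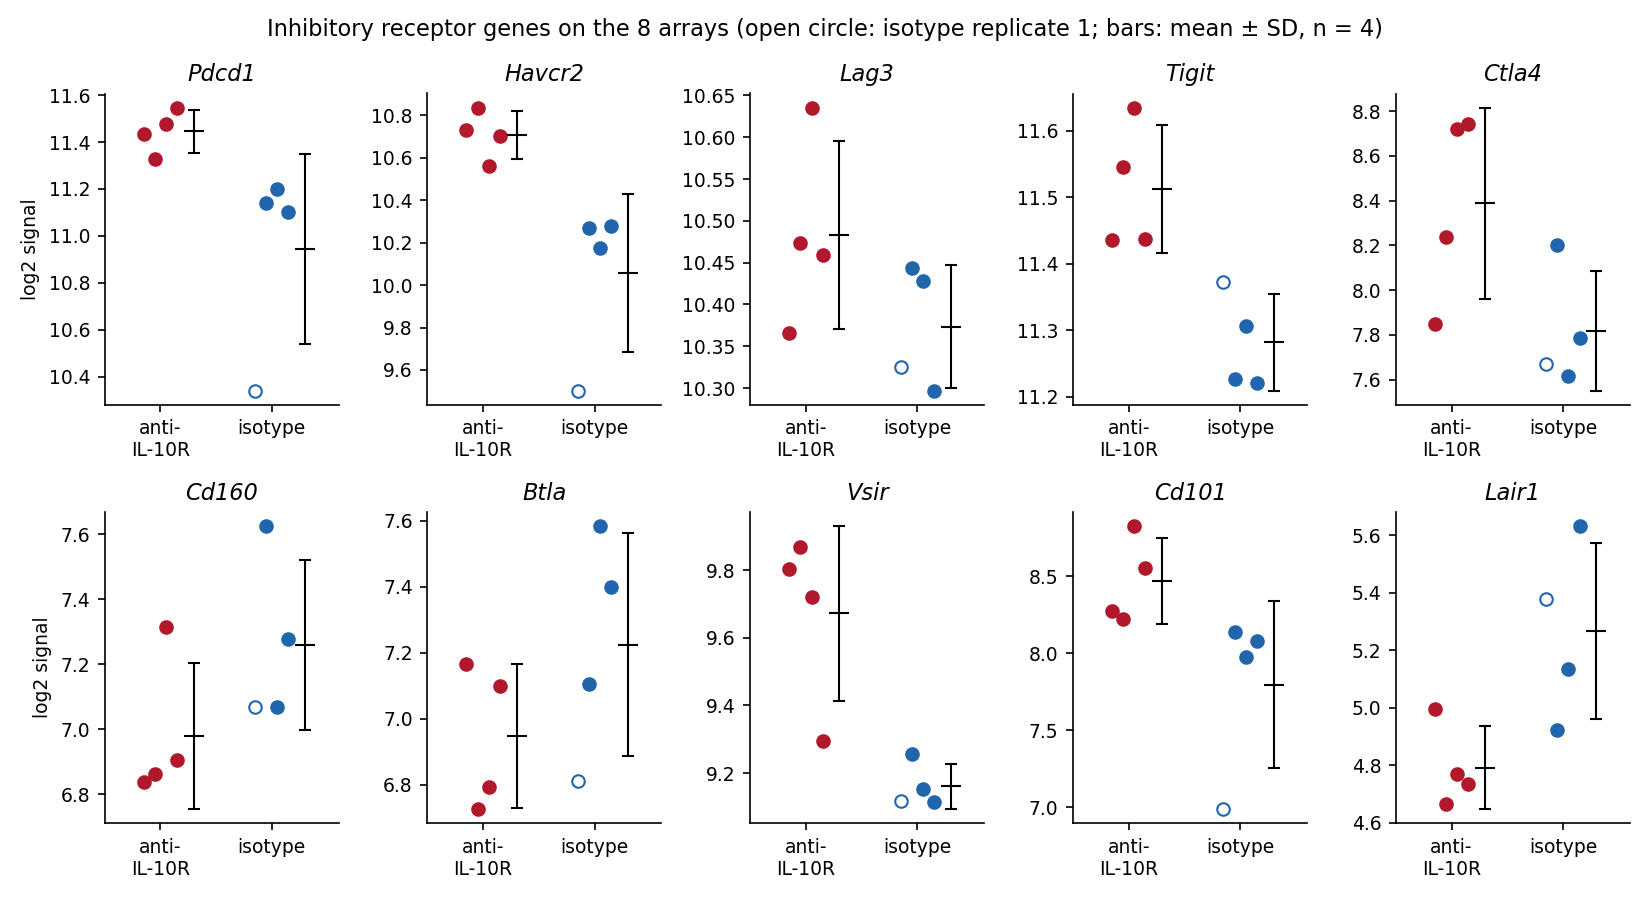
Log2 signal of each receptor on each array (y axis, a separate scale per gene), with the 4 anti-IL-10R arrays on the left and the 4 isotype arrays on the right of every panel; bars are mean ± SD. The open circle, isotype replicate 1, is the lowest point for Pdcd1 (10.34), Havcr2 (9.50) and Cd101 (6.99), and not for Tigit, Vsir or Lair1.

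PD-1 and CTLA-4 are inhibitory members of the CD28 family that bind ligands of the B7 group, PD-L1 and PD-L2 for PD-1 and CD80 and CD86 for CTLA-4. Pdcd1 had 11.43, 11.33, 11.48 and 11.55 in anti-IL-10R replicates 1 to 4, against 10.34, 11.14, 11.20 and 11.10 in isotype replicates 1 to 4. The anti-IL-10R arrays all lay above the isotype arrays and close together, with an SD of 0.09 against 0.40. The difference was 0.50 ± 0.19 (SE, 95% interval 0.08 to 0.92, limma adjusted p = 0.177), and 0.30 ± 0.09 without isotype replicate 1 (adjusted p = 0.0768). Ctla4, whose protein takes CD80 and CD86 away from CD28, had 7.85, 8.24, 8.72 and 8.74 in anti-IL-10R arrays, against 7.67, 8.20, 7.61 and 7.79 in isotype arrays. Anti-IL-10R replicates 3 and 4 were the high ones, and replicate 1 lay within the isotype range, so the groups overlapped. The difference of 0.57 ± 0.22 did not pass (adjusted p = 0.187) and spanned 0.45 to 0.75 with single arrays left out (0.52 without isotype replicate 1).

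TIM-3 has no classical inhibitory tyrosine motif; its tail is held inactive by the adaptor BAT3 until a ligand such as galectin-9 or CEACAM1 binds. Havcr2 had 10.73, 10.84, 10.56 and 10.70 in anti-IL-10R arrays, against 9.50, 10.27, 10.17 and 10.28 in isotype arrays. Every anti-IL-10R array was above every isotype array, by at least the gap between 10.56 and 10.28. The difference was 0.65 ± 0.18, which is 1.57-fold (95% interval 1.19 to 2.07, limma adjusted p = 0.0829). Without isotype replicate 1 it was 0.47 ± 0.10 and passed (adjusted p = 0.0219); over all single arrays left out, it spanned 0.47 to 0.72 with adjusted p of 0.0219 to 0.197.

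VISTA is a B7-like receptor that binds VSIG3 and, at acid pH, PSGL-1. Vsir had 9.80, 9.87, 9.72 and 9.30 in anti-IL-10R arrays, against 9.12, 9.26, 9.15 and 9.11 in isotype arrays. The 4 isotype arrays differed little (SD 0.07), and anti-IL-10R replicate 4 was the one treated array near them. The difference was 0.51 ± 0.14 (95% interval 0.20 to 0.82, limma adjusted p = 0.0815). The value was 0.50 ± 0.14 without isotype replicate 1 (adjusted p = 0.0567). Vsir lies inside the span of Cdh23, whose own signal was dim and ran the other way (4.60 in anti-IL-10R and 4.87 in isotype arrays).

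CD101 is an immunoglobulin superfamily receptor that marks terminally exhausted CD8 T cells in chronic infection of mice. Cd101 had 8.27, 8.23, 8.83 and 8.55 in anti-IL-10R arrays, against 6.99, 8.14, 7.98 and 8.08 in isotype arrays. The groups did not overlap, but anti-IL-10R replicate 2 (8.23) was close to isotype replicate 2 (8.14), and isotype replicate 1 lay more than a log2 unit below every treated array. The difference of 0.67 ± 0.26 was the highest of the 10 receptors (adjusted p = 0.185), and 0.40 ± 0.15 without isotype replicate 1 (adjusted p = 0.116).

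TIGIT binds CD155 (Pvr) and Nectin2 and competes for them with the stimulatory receptor CD226. Tigit had 11.44, 11.55, 11.64 and 11.44 in anti-IL-10R arrays, against 11.37, 11.23, 11.31 and 11.22 in isotype arrays. The groups did not overlap, with small steps between arrays, and isotype replicate 1 was the highest of its group. The difference was 0.23 ± 0.10 (95% interval 0.01 to 0.46, limma adjusted p = 0.24), and 0.26 without isotype replicate 1. The span of Tigit overlaps that of Zbtb20, which was itself higher by 0.68 (adjusted p = 0.0534, and 0.78 with adjusted p = 0.0137 without isotype replicate 1), and whether the probes of 1 gene also read the other is not known here.

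LAG-3 is a relative of CD4 that binds MHC class II and FGL1. Lag3 had 10.37, 10.47, 10.64 and 10.46 in anti-IL-10R arrays, against 10.33, 10.44, 10.43 and 10.30 in isotype arrays. The groups overlapped and only anti-IL-10R replicate 3 stood above all isotype arrays by more than 0.1. The difference was 0.11 ± 0.10, and its 95% interval of −0.12 to 0.34 leaves room for a moderate increase and for none (adjusted p = 0.607). It was 0.09 without isotype replicate 1. Left-out arrays moved it between 0.06, where anti-IL-10R replicate 3 was dropped, and 0.15, where replicate 1 of that group was.

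BTLA and CD160 share a ligand, HVEM (Tnfrsf14); BTLA has inhibitory tyrosine motifs, while CD160 is tied to the membrane by a lipid anchor. Btla had 7.17, 6.73, 6.79 and 7.10 in anti-IL-10R arrays, against 6.81, 7.10, 7.58 and 7.40 in isotype arrays. Cd160 had 6.84, 6.86, 7.32 and 6.90 in anti-IL-10R arrays, against 7.07, 7.63, 7.07 and 7.28 in isotype arrays. Both pairs of groups overlapped, through isotype replicates 1 and 2 for Btla and through anti-IL-10R replicate 3 for Cd160. The difference was −0.28 ± 0.18 for Btla and −0.28 ± 0.16 for Cd160 (limma adjusted p = 0.437 and 0.381). Without isotype replicate 1 they were −0.42 ± 0.15 and −0.34 ± 0.16 (adjusted p = 0.113 and 0.206). Btla was −0.16 without isotype replicate 3 and Cd160 −0.16 without isotype replicate 2.

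LAIR-1 is a collagen receptor with inhibitory tyrosine motifs. Lair1 was the dimmest of the 10 and the only one whose mean over all arrays lay below the limit of the fit, 5.24. It had 5.00, 4.67, 4.77 and 4.73 in anti-IL-10R arrays, against 5.38, 4.92, 5.13 and 5.63 in isotype arrays. The groups touched only through anti-IL-10R replicate 1 and isotype replicate 2. The difference was −0.48 ± 0.16 (SE of the fit over all 22180 genes, limma adjusted p = 0.206), and −0.44 without isotype replicate 1, where the adjusted p was 0.184.

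**Figure D2:**
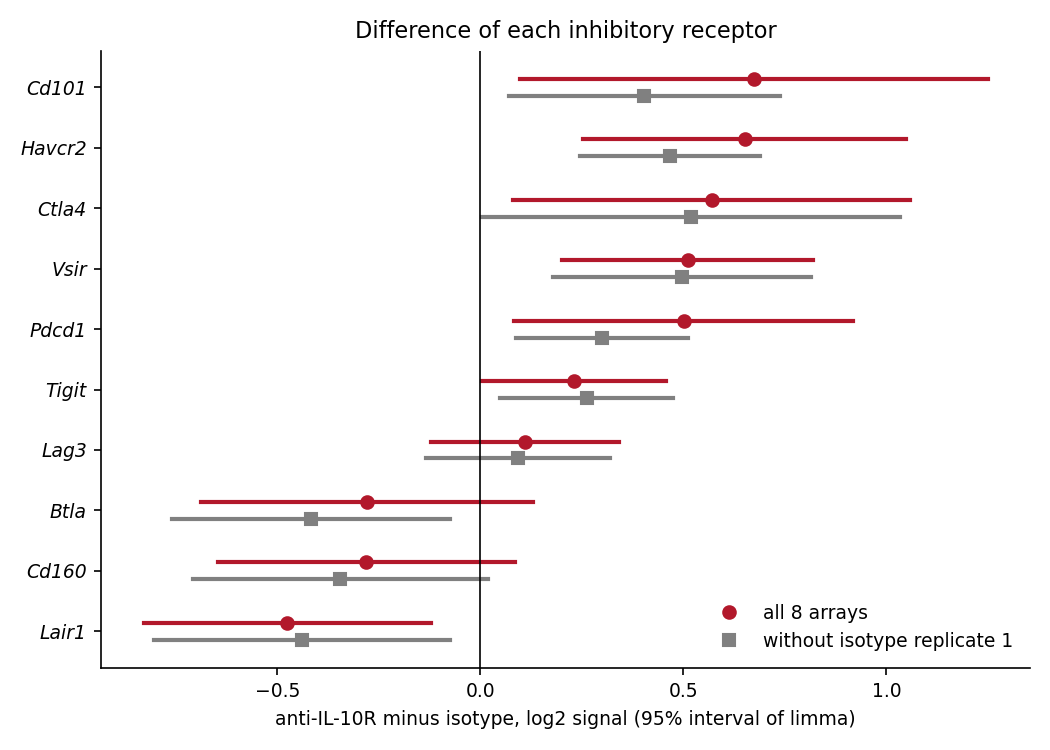
Difference of each receptor, anti-IL-10R minus isotype, in log2 signal (x axis) with the 95% interval of limma, for all 8 arrays (circles) and without isotype replicate 1 (squares). Leaving out that array moves Pdcd1 (0.50 and 0.30), Havcr2 (0.65 and 0.47) and Cd101 (0.67 and 0.40) towards 0 and narrows their intervals, and leaves Vsir (0.51 and 0.50) in place.

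The values of Lair1, Btla, Ctla4 and Tigit need to be read beside markers of other cells, because B cells and some other leukocytes also make LAIR-1 and BTLA, and regulatory T cells make CTLA-4 and TIGIT. In bulk RNA, fewer cells of a kind and less RNA per cell cannot be told apart. Of 10 B cell markers, 9 had a row and 7 of these were below the limit of 5.24 in their mean; the mean of the 9 was 4.73 to 4.84 in anti-IL-10R arrays and 4.74 to 5.24 in isotype arrays. The B cell receptor chains Cd79a and Cd79b, the 2 above the limit, averaged 5.60 and 5.75 in anti-IL-10R arrays and 5.97 and 6.16 in isotype arrays. Over isotype replicates 1 to 4 the mean of the 9 was 5.03, 4.74, 5.24 and 5.08. Isotype replicate 3 had the highest marker mean and the highest Btla. Isotype replicate 1, close to replicate 4 in that mean, had the lowest Btla of the isotype group (6.81). Replicates 1 and 4 were unlike in single markers: of the isotype arrays, replicate 1 had the highest Cd79a and the lowest Cd79b. Cd79b had 5.61, 5.73, 6.82 and 6.47 in isotype replicates 1 to 4, the same order as Btla. In anti-IL-10R replicates 1 to 4 Cd79b had 5.67, 5.93, 5.64 and 5.75, which is not the order of Btla. For Lair1 the order against the marker mean was also mixed, with 5.38, 4.92, 5.13 and 5.63 in isotype replicates 1 to 4. In a fit that carries the mean of the B cell markers as a covariate, the difference was −0.07 ± 0.25 for Btla, −0.35 ± 0.22 for Lair1 and 0.33 ± 0.30 for Ctla4. In that fit Cd160 was further from 0 (−0.57 ± 0.19), Tigit was 0.25 ± 0.15, and the other 5 receptors lay between 0.08 (Lag3) and 0.63 (Havcr2). None of the 10 passed the threshold there, where of all 12019 genes tested only 1 was called higher and 1 lower. The part of B cells in these differences beyond that fit was not tested.

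**Figure D3:**
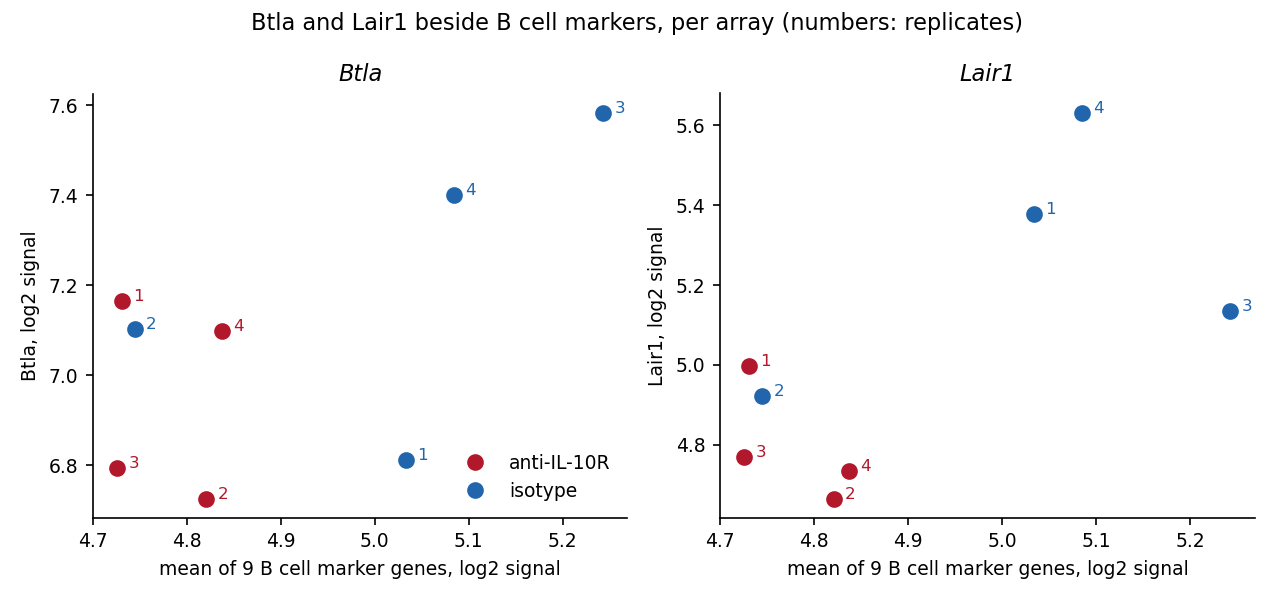
Btla (left) and Lair1 (right), log2 signal on the y axis, against the mean of 9 B cell marker genes on the x axis, with 1 point per array labelled by its replicate number. Isotype replicates 3 and 4 combine high marker means (5.24 and 5.08) with the highest Btla (7.58 and 7.40), but isotype replicate 1, at 5.03, has a Btla of 6.81, within the anti-IL-10R range. Isotype replicate 2, with a marker mean of 4.74, lies among the anti-IL-10R arrays for Btla.

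For CD4 or regulatory T cells, the 4 markers had a mean of 5.08 to 5.38 in anti-IL-10R arrays and 5.15 to 5.94 in isotype arrays. Cd4 and Cd40lg were below the limit, and Zbtb7b differed by 0.21. Foxp3, which defines regulatory T cells, was 5.33 ± 0.23 (SD, n = 4) in anti-IL-10R arrays and 6.25 ± 1.17 in isotype arrays. It reached 7.97 in isotype replicate 1 (difference between the groups −0.92, and −0.35 without that array). That array had the highest Tigit of its group, but its Ctla4 of 7.67 was the second lowest of all arrays. The marker means of monocytes or macrophages (5.43 to 5.61 in anti-IL-10R and 5.27 to 5.92 in isotype arrays) and of NK cells (4.08 to 4.25 in anti-IL-10R and 3.93 to 4.68 in isotype arrays) overlapped between the groups. In anti-IL-10R arrays the markers of dendritic cells, neutrophils and erythroid cells had means of 5.29 to 5.46, 3.84 to 4.07 and 5.11 to 5.45. In isotype arrays they had 5.34 to 5.53, 3.88 to 4.47 and 4.99 to 5.55, so these overlapped too. The mean of 4 plasma cell markers was 4.60 to 4.69 in anti-IL-10R and 4.76 to 5.11 in isotype arrays, without overlap. That of the 6 CD8 T cell markers was 11.77 to 11.81 in anti-IL-10R and 11.54 to 11.71 in isotype arrays, also without overlap. The part of these cells in the receptor differences was not tested.

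Of the 6 CD8 T cell markers, Cd3e, Cd3g, Cd8a and Cd8b1 were higher in anti-IL-10R arrays without overlap. Cd3d differed by 0.14 with overlap, and Cd2 went the other way, by −0.34 without overlap. Because Cd3e, Cd8a and Cd8b1 were higher, the receptors were also expressed relative to the mean of these 3 genes on each array. That scaling lowers the difference of every gene by the same amount and brings the median over all genes tested to −0.27. On it, Cd101, Havcr2, Ctla4, Vsir and Pdcd1 differed by 0.38, 0.36, 0.28, 0.22 and 0.21, and none passed. Tigit and Lag3 turned to −0.06 and −0.18, which is still above the shifted median. Btla and Cd160 both came to −0.57 and passed as lower (limma adjusted p = 0.0322 and 0.0403), 2 of the 9 receptors in that fit, where 20.3% of all genes were called lower. Lair1 passed at −0.77 (adjusted p = 0.0231 over all 22180 genes, of which 15.3% were called lower).

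Whether the receptors differ from one another in their response was tested within arrays. For each of the 45 pairs, the log2 difference of the 2 genes on an array was compared between the groups by an exact two-sided permutation test over the 70 ways of splitting the arrays, for which 0.0286 is the smallest possible p. In 16 pairs (35.6%) the within-array difference did not overlap between the groups, which gives that smallest p. The share of such pairs among pairs of all genes was not computed. The 45 pairs reuse the same receptors and are not independent, so the count is a description. After Benjamini-Hochberg adjustment over the 45 pairs the smallest permutation p was 0.0804, so no pair passed. A pair could have passed only if most of the 45 pairs had reached the smallest p, so the test had little power. Without isotype replicate 1 the same 16 pairs were separated among 19, but with 35 splits the smallest possible p is 0.0571. Families were taken by shared ligand, B7 molecules for PD-1 and CTLA-4 and HVEM for BTLA and CD160, and neither family's pair separated the groups. Ctla4 and Pdcd1 differed in their response by 0.07 ± 0.28 (SE, exact permutation p = 0.83, adjusted 0.909), and Btla and Cd160 by 0.0017 ± 0.295 (exact permutation p = 0.971, adjusted 0.971). When isotype replicate 1 was left out, Ctla4 exceeded Pdcd1 by 0.22 ± 0.27, and Cd160 exceeded Btla by 0.07 ± 0.36.

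All 16 separated pairs lay across these ligand families, but so did every pair tested except Ctla4 with Pdcd1 and Btla with Cd160. Of the 16 separated pairs, 14 set 1 of Cd101, Havcr2, Ctla4, Vsir, Pdcd1 and Tigit against 1 of Lair1, Cd160 and Btla. That grouping was made after the values were seen and covers 18 pairs. The responses in those 18 pairs differed by 0.51 to 1.15. Cd160 entered 6 of the separated pairs, Lair1 5, Pdcd1 4, and Havcr2, Vsir, Cd101 and Btla 3 each. Relative to Cd160, Havcr2 was higher by 0.93 ± 0.23 and Pdcd1 by 0.78 ± 0.22 in anti-IL-10R arrays (exact permutation p = 0.0286, adjusted 0.0804, for both). The 2 other separated pairs set Pdcd1 and Vsir against Lag3, by 0.39 ± 0.20 and 0.40 ± 0.14 (the same p-values), and by 0.21 ± 0.07 and 0.40 ± 0.14 without isotype replicate 1. Among the 15 pairs within Cd101, Havcr2, Ctla4, Vsir, Pdcd1 and Tigit, no pair separated, with responses that differed by 0.01 to 0.44 (exact permutation p = 0.0857 to 0.971). Relative to Pdcd1 itself, Havcr2 differed by 0.15 ± 0.10 and Cd101 by 0.17 ± 0.14 (exact permutation p = 0.257 and 0.314, adjusted 0.362 and 0.429), and by 0.17 and 0.10 without isotype replicate 1.

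**Figure D4:**
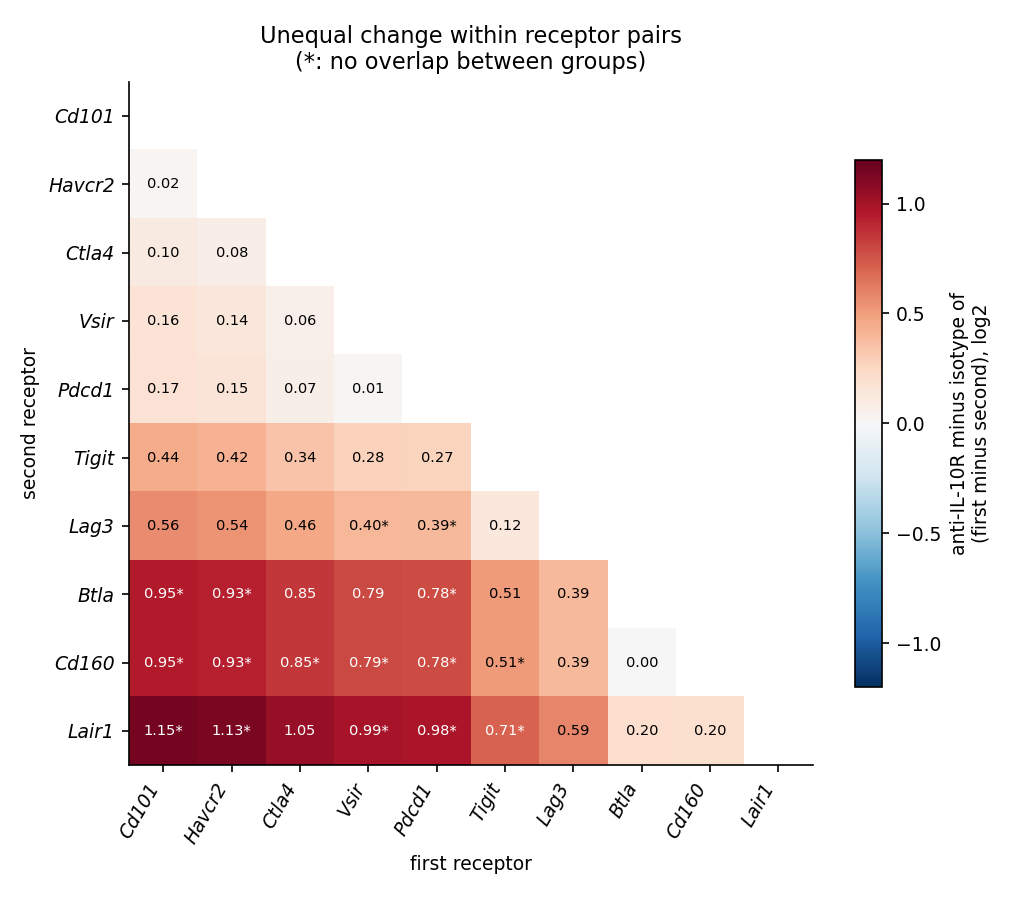
For each pair of receptors, colour and number give how far the first (column) exceeds the second (row) in its response, as anti-IL-10R minus isotype of their within-array log2 difference; receptors are ordered by their own difference. Stars mark the 16 pairs without overlap between the groups, most of them in the rows of Btla, Cd160 and Lair1.

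Likeness to other genes was measured as the root mean square distance between log2 values over the 8 arrays, each gene centred on its own mean. The 3 genes nearest to Pdcd1 were Rprd2, Senp2 and Ap5b1 (distances 0.05, 0.06 and 0.07), and those nearest to Havcr2 were Snhg20, Dnajc16 and Rtp4 (0.06, 0.08 and 0.09). Nearest to Tigit were Slc1a7, Clint1 and Tmbim6 (0.05, 0.05 and 0.05), to Vsir Pik3c2a, Polr3gl and Zc3h12a (0.09, 0.10 and 0.11), and to Cd101 Zfp329, Vwa5a and Tasor2 (0.08, 0.11 and 0.13). None of the 10 receptors was among these 15 genes; likeness to the other 5 receptors was not computed. Of the 15 genes, Pik3c2a alone passed with all 8 arrays (0.55, limma adjusted p = 0.0379). Its call was lost when any single array other than isotype replicate 1 was left out (limma adjusted p = 0.0628 to 0.122).

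The genes around the receptors were followed in 5 lists: their ligands, stimulatory or competing receptors, signalling molecules, proteins that handle them at the surface, and transcription factors that act on their expression. Of the 57 genes tested, 2 rose and 0 fell, the signalling brake Cblb and the transcription factor Maf, beside 1.23% of all genes called higher and 1.3% called lower. With isotype replicate 1 left out, 7 rose and 1 fell, beside 3.35% and 5.9% of all genes. The medians were 0.24, 0.38, 0.25, 0.06 and 0.26 in that order of lists, beside 0.50 for the 9 receptors and 0.03 for all genes tested.

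Among the ligands, of 11 tested 8 were higher and 3 lower, and none passed. T cells carry some of these ligands themselves. The 3 with the smallest p were Cd86, at 7.36 ± 0.37 (SD, n = 4) in anti-IL-10R and 6.72 ± 0.60 in isotype arrays (difference 0.64, limma adjusted p = 0.263, and 0.34 without isotype replicate 1), Tnfrsf14, the ligand of BTLA and CD160 (0.24, adjusted p = 0.345, and 0.13 without anti-IL-10R replicate 2), and Lgals3, which can bind LAG-3 (−0.22, adjusted p = 0.356). Cd274, which encodes PD-L1 and was chosen after its value was seen, differed by 0.27, and by −0.01 without isotype replicate 1.

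Among the stimulatory or competing receptors, of 10 tested 7 were higher and 3 lower, and none passed with all arrays. Cd96, which shares CD155 with TIGIT, had 10.64, 10.66, 10.72 and 10.74 in anti-IL-10R arrays, against 9.77, 10.34, 10.31 and 10.20 in isotype arrays (0.54 ± 0.14, limma adjusted p = 0.0727). Cd244a, the SLAM family receptor 2B4, had 10.11, 9.51, 10.21 and 9.80 in anti-IL-10R arrays, against 6.94, 9.01, 8.54 and 8.94 in isotype arrays (1.55 ± 0.41, adjusted p = 0.0783). Both had no overlap between the groups and passed without isotype replicate 1 (0.41, adjusted p = 0.0257, and 1.08, adjusted p = 0.011). Cd2, an adhesion receptor of T cells, had a difference of −0.34 ± 0.10 without overlap (adjusted p = 0.0986), opposite to those of Cd96 and Cd244a.

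The partner receptors of TIGIT and CTLA-4 were looked up after their values were seen. Cd226, the stimulatory competitor of TIGIT, had 6.36, 6.53, 5.47 and 6.06 in anti-IL-10R arrays, against 6.82, 6.67, 6.70 and 7.67 in isotype arrays. It lay below every isotype array in all anti-IL-10R arrays, a difference of −0.86 ± 0.28 that did not pass (limma adjusted p = 0.127). Tigit and Cd226 thus ran in opposite directions, each without overlap and neither past the threshold. Cd28 and Icos, the neighbours of Ctla4 on chromosome 1, differed by 0.46 ± 0.24 and 0.59 ± 0.25 with overlapping groups (adjusted p = 0.333 and 0.221), and by 0.22 and 0.35 without isotype replicate 1.

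Among the signalling genes, of 12 tested 9 were higher and 3 lower, and Cblb rose. CBL-B is a ubiquitin ligase that raises the threshold of T cell activation and is induced by inhibitory receptors. Cblb had 11.91, 11.98, 11.997 and 12.03 in anti-IL-10R arrays, against 11.51, 11.50, 11.62 and 11.54 in isotype arrays. The groups were far apart relative to their spread, and the difference was 0.44 ± 0.09 (limma adjusted p = 0.0478). The value was 0.42 to 0.46 with single arrays left out, but the call held only without isotype replicate 1 (adjusted p = 0.0217) and was lost without any other array (0.0858 to 0.146). Of the phosphatases that PD-1, BTLA and LAIR-1 recruit, chosen after their values were seen, Ptpn11 (SHP-2) differed by 0.63 ± 0.28, and by 0.29 without isotype replicate 1. Ptpn6 (SHP-1) differed by −0.10 ± 0.19, and by −0.30 without that array; neither passed (adjusted p = 0.254 and 0.815).

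Among the surface-handling genes, of 8 tested 6 were higher and 2 lower, and none passed. Lrba, which saves CTLA-4 from degradation, had the smallest p (0.37 ± 0.11, limma adjusted p = 0.0958), followed by Adam10, a protease that sheds LAG-3 (0.50 ± 0.23, adjusted p = 0.258, and 0.25 without isotype replicate 1). Trat1, an adaptor that helps bring CTLA-4 to the surface, was the third by p and differed by −0.28 ± 0.29 (adjusted p = 0.636). Single arrays carried much of that value, which was −0.039 without anti-IL-10R replicate 1 and −0.12 without isotype replicate 2.

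Among the transcription factors, of 16 tested 13 were higher and 3 lower, and Maf rose. MAF takes part in the expression of several inhibitory receptors and of IL-10 in mouse T cells. Maf had 9.32, 9.70, 9.35 and 9.74 in anti-IL-10R arrays, against 7.07, 8.42, 8.55 and 8.25 in isotype arrays. The difference was 1.45 ± 0.30 (limma adjusted p = 0.0408), and 1.12 without isotype replicate 1 (adjusted p = 0.00593); the call was lost without any other single array (0.0632 to 0.118). The calls of Cblb and Maf were also lost without the filter on dim genes and with the B cell covariate, that of Cblb after either rescaling of the arrays (centring or T cell genes), and that of Maf where variances were not shared across genes. Without isotype replicate 1, Nr4a2, Id2 and Ikzf2 also passed, at 0.43, 0.39 and 0.52, and Nr4a1 fell by 0.67; these 4 were chosen after their values were seen. Tox, a driver of exhaustion that was also chosen after its value was seen, differed by 0.33 ± 0.12 (limma adjusted p = 0.174) without overlap. Of the 16 transcription factors tested, 9 were higher without overlap, beside 9.32% of all genes tested.

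**Figure D5:**
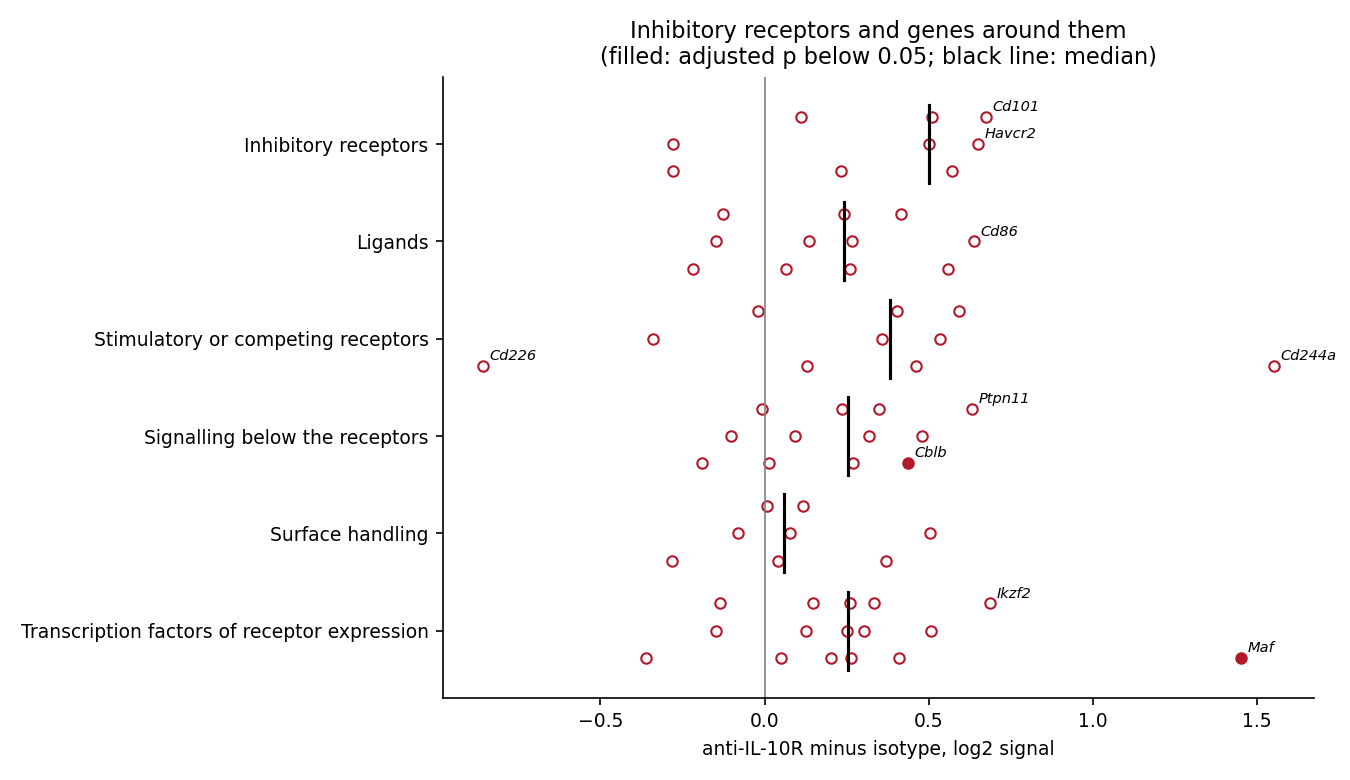
Difference of every tested gene of the inhibitory receptors and of the 5 lists around them, anti-IL-10R minus isotype in log2 signal (x axis), 1 point per gene, with each list's median as a black line. The filled points, Cblb (0.44) and Maf (1.45), are the only genes past the threshold with all 8 arrays.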

How the data were processed

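Each array (GeneChip Mouse Gene 2.0 ST) measured the RNA of 1 sample of sorted cells (labels' protocols). What the authors deposited is a log2 signal for every transcript cluster; per the submitters' processing notes it came from Affymetrix Power Tools, whose version, algorithm and normalization have no mention in the sources used here. That the scale is log2 was read from the values, 1.57 to 13.89.

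Of 41345 rows, 23521 had exactly 1 symbol in the platform annotation (updated through RefSeq gene identifiers), 1814 had several and 16010 had none and are unnamed here. The brightest row per gene was kept (22180 genes), and genes with a mean of at least 5.24, the median of all row means, were tested (12019). Levels of different genes are not compared, and no detection call was available; the number of arrays limits precision.

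Differences are anti-IL-10R minus isotype, from lmFit and eBayes of limma 3.58.1 (R 4.3.3, 9.59 degrees of freedom), two-sided p-values and Benjamini-Hochberg adjustment over all genes tested; intervals are 95%. Receptor pairs were tested by exact permutation. The fit was tested on simulated data. Named genes are all 10 receptors, the sort genes and Il10ra, in each list the members past the threshold or else the 3 with the smallest p, and the 3 genes nearest to each receptor without overlap; others are said to be chosen later. The members and lists were chosen with earlier results of these data known. Alternatives were 2 other filters, quantile normalization, centring, scaling to T cell genes, the mean of all rows, other variance models, array weights (statmod 1.5.0), a Welch test, the replicate block, a B cell covariate, other thresholds and each array left out. Of the listed genes, Lck, Tcf7 and 6 markers had no row with 1 symbol and were not analysed here.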

Additional observations from a re-analysis of the deposited data

Results flagged for a closer look

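In groups of 4 arrays, an array is listed here when its gap to the next one exceeds Dixon's 95% value; chance alone lists about 1 in 20 groups. Of the named genes, 39 genes in 78 groups were examined and 16 groups were listed, 10 of them for isotype replicate 1.

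Isotype replicate 1 was the low array for the receptors Pdcd1 (10.34, against 11.10 to 11.20 in the other isotype arrays), Havcr2 (9.50, against 10.17 to 10.28) and Cd101 (6.99, against 7.98 to 8.14). It was also low for Cd86 (5.83), Cd28 (7.21), Cd274 (6.15), Cd44 (6.05), Ptpn6 (7.99), Ptpn11 (8.44) and Nr4a1 (7.11). The same array had the highest Foxp3 and the lowest correlation with the other arrays; the part of either in these values was not tested.

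Anti-IL-10R replicate 3 was high for Cd160 (7.32, against 6.84 to 6.90), which makes the groups overlap for that receptor. Anti-IL-10R replicate 2 was low for Cd3e (12.57) and Tox (11.13), and anti-IL-10R replicate 4 high for Il7r (4.34, against 3.27 to 3.41). Isotype replicate 4 was high for Il10ra (9.997) and Cd226 (7.67, against 6.67 to 6.82).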

How the results depend on the processing

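Of the 19 alternatives run, 6 leave the difference of a receptor as it is by construction. Under the other 13 the direction of the 10 receptors held in 128 of 130 values. The exceptions were Lag3 (−0.18) and Tigit (−0.062) with arrays scaled to T cell genes. Many of the 130 values could not turn, so the count is a weak check. For the 5 receptors without overlap between the groups, no left-out array can change the direction. Centring lowers every difference by only 0.04. No receptor rose with all arrays as deposited, against 1 after centring each array (Havcr2), 2 with array weights or at an adjusted p below 0.1 (Havcr2 and Vsir) and 0 to 1 with single arrays left out. Of all 12019 genes tested, 219 rose after centring, 654 with array weights and 476 at an adjusted p below 0.1. No receptor fell, against 2 of the 9 with T cell scaling (Btla and Cd160), and Lair1 in the fit over all genes. No receptor pair passed with quantile normalization or the mean of all rows, where most pairs would have had to reach the smallest p. None passed with single arrays left out, where none could, since the smallest possible p is then 0.0571.

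Over all genes, 148 rose and 156 fell. The counts were 67 and 78 with no filter, 81 and 2445 with T cell scaling, 654 and 815 with array weights, 17 and 9 with a Welch test, 1 and 1 with the B cell covariate, 476 and 420 at an adjusted p below 0.1, and 2 and 1 below 0.01. A stricter filter gave 239 and a trended, robust variance 225 that rose; quantile normalization gave 427 and centring 307 that fell. With single arrays left out, 2 to 403 rose and 1 to 709 fell, the highest counts both without isotype replicate 1. Same-numbered arrays of the groups correlated at −0.16 to 0.12 in their deviations, and 1 of 4 correlated best with its own number. From 4 such pairs it cannot be told whether the numbers pair the arrays. With the replicate block 2 genes rose and 2 fell, with 0 receptors.

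Of the 57 listed genes around the receptors that were tested, 2 rose and 0 fell. Counts over all genes stand in the paragraphs above, except that 204 rose with quantile normalization. There were 0 that rose with no filter, the replicate block, the B cell covariate or a threshold of 0.01, 1 with a Welch test, 5 with quantile normalization or centring, 6 with the stricter filter, 7 with trended variance, 8 at 0.1, 10 with array weights and 0 to 7 with single arrays left out. With T cell scaling 8 of the 57 fell, where 20.3% of all genes tested were called lower. Those that fell were 2 with array weights, 1 with trended variance or at 0.1, and 0 to 1 with single arrays left out. Of all 12019 genes tested, 815 fell with array weights, 197 with trended variance and 420 at 0.1. The cause was not tested.

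Signs also turned under T cell scaling for Tnfrsf14 (−0.052), Cd3e (−0.025), Cd44 (−0.10), Il7r (−0.26), Slc1a7 (−0.13), Clint1 (−0.040), Tmbim6 (−0.11) and Cd274 (−0.028). That scaling lowers every difference by the same amount, so any gene with a small enough difference above 0 turns. Cd3e is itself among the genes scaled to, which brings its value near 0 by construction. Il7r, far below the limit of 5.24, was −0.011 after centring and −0.025 with the B cell covariate. With single arrays left out it spanned −0.22 to 0.33, and below 0 it lacked anti-IL-10R replicate 4 or isotype replicate 3 or 4. Cd274 spanned −0.014 (without isotype replicate 1) to 0.38, and Nr4a1 −0.67 (without isotype replicate 1) to 0.094, with values above 0 without isotype replicate 2, 3 or 4.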

Other observations

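A few neighbours of the receptors on the chromosome are given as values, chosen after these were seen. Med7, next to Havcr2 on chromosome 11, averaged 9.65 in anti-IL-10R and 8.96 in isotype arrays, a difference of 0.69 without overlap (limma adjusted p = 0.0634), and of 0.56 without isotype replicate 1 (adjusted p = 0.0359). Next to Lag3 on chromosome 6, Ptms differed by −0.12. Next to Cd101 on chromosome 3, Ttf2 and Ptgfrn differed by −0.17 and −0.24, opposite to the receptor. Cd200, next to Btla, differed by 0.33 with overlapping groups (adjusted p = 0.618), and by 0.03 without isotype replicate 1.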
